A study of Mus musculus with 80 samples.

Results

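The 7 genes described here code for purinergic receptors and an ectonucleotidase: P2ry12, P2ry13, P2ry6, P2rx4, P2rx7, Entpd1 and Adora3. They were taken by gene symbol and are 7 of the 15919 genes listed in the sort comparison and 7 of the 16000 listed in the preparation comparison. The rule uses symbols only. Of the 7, P2ry12, P2ry13, Entpd1 and Adora3 are also in the study's list of microglial markers.

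All libraries came from brains of Cx3cr1(Jung)-cre/Ert2+;NuTRAP+ mice, which received tamoxifen at 100 mg/kg from about 3 months of age. Tamoxifen turns on a tagged ribosomal protein in cells with an active Cx3cr1 promoter, so that translating ribosome affinity purification (TRAP) pulls down the RNA on their ribosomes, and the homogenate before the pull-down is the Input. The Cx3cr1 promoter is active in microglia and also in border macrophages of the brain, and every group carries the same alleles and the same induction. The study asked how much the steps of taking a brain apart and sorting its microglia alter their RNA.

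The sort comparison holds 48 libraries. Tissue is a hemisphere homogenized directly and Cell is the suspension after enzymatic and mechanical dissociation, both from mice 946 to 949. In autoMACS (n = 4), CD11b cells were held on a magnetic column. Tyto (n = 5) and FACSAria (n = 4) sorted cells positive for CD11b, CD45 and eGFP, the tag that the Cx3cr1 promoter turns on, in a cartridge or on a cytometer, and autoMACS to Tyto (n = 3) did both in turn. Each preparation was read as Input and as TRAP. The sorted brains are other mice than those of Tissue and Cell, so sort and mouse cannot be told apart there. Among the sorts, autoMACS and autoMACS to Tyto share mice 66, 67 and 73, and Tyto and FACSAria share mice 69, 945 and 991. The preparation comparison holds 32 libraries, 4 for each fraction of Tissue (mice 946 to 949), Dounce, Cell (−) Inhib and Cell (+) Inhib. Dounce is a suspension made mechanically, at 4°C throughout, from the pooled hemispheres of each of mice 179 to 182. The Cell (−) Inhib and Cell (+) Inhib suspensions were made enzymatically from the hemispheres of the same brains (mice 156, 157, 1361 and 1362), without and with actinomycin D and triptolide, which block transcription, and anisomycin, which blocks translation. In this comparison the study describes the lowest RNA integrity in Dounce-Input, and more 3′ bias in Dounce and Tissue than in Cell libraries.

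As background, ATP leaves damaged or active cells and is broken down outside them in steps to ADP, AMP and adenosine, and microglia carry receptors for several of these. P2ry12 and P2ry13 are G-protein-coupled receptors for ADP. P2ry12 steers microglial processes toward a source of ADP and is a standard marker of microglia at rest. P2ry6 is a receptor for UDP linked to phagocytosis. P2rx4 and P2rx7 are cation channels opened by ATP, and P2rx7 is the classical trigger of inflammasome assembly and interleukin 1 beta release. Entpd1, also called CD39, hydrolyses ATP and ADP to AMP at the cell surface. Adora3 is a receptor for adenosine.

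On mm10, P2ry13 (chromosome 3, 59207894 to 59210882) and P2ry12 (chromosome 3, 59216271 to 59262831) are neighbours on the minus strand. P2rx7 (chromosome 5, 122643911 to 122691432) and P2rx4 (chromosome 5, 122707557 to 122729042) are neighbours on the plus strand. P2ry6 lies on chromosome 7 (100937634 to 100964366, minus strand) and Entpd1 on chromosome 19 (40659794 to 40741602, plus strand). Med12l (chromosome 3, 59006978 to 59318412) runs across P2ry12 and P2ry13 on the opposite strand, and reads were aligned by strand. The Adora3 row spans chromosome 3, 105870858 to 105924042, which is wider than Adora3 in RefSeq on GRCm38.p6 (105904421 to 105908928) and holds Tmigd3 (105870858 to 105924044). Tmigd3 has no row of its own, so counts under Adora3 may include Tmigd3 and are uncertain in that sense.

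Depth ran from 7129464 to 20168116 counts per library in the sort comparison and from 2471448 to 14650287 in the preparation comparison, lowest in Dounce-TRAP (2471448 to 4724538). Levels are given as CPM, a gene's count per fixed number of counts in its library, with library sizes scaled by the trimmed mean of M-values (TMM) within Input or within TRAP. All 10 defining microglial genes were detected in every group. Their summed level was 255 to 391 CPM in Tissue-Input, 4777 to 6259 in Cell-Input, 30212 to 32117 in Cell-TRAP and 37549 to 43047 in FACSAria-TRAP. The 5 defining neuronal genes summed to 4027 to 4733 CPM in Tissue-TRAP of the sort comparison, 72.9 to 234 in Cell-TRAP and 0.57 to 5.53 in the sorted TRAP libraries, so Tissue-TRAP held RNA of other cells too. The 5 border macrophage genes summed to 131 to 162 CPM in Tissue-TRAP and 703 to 1840 in Cell-TRAP. One library stood apart: autoMACS-Input of mouse 72 had the fewest counts of the table (7129464), and the study's microglial markers summed there to 77316 CPM against a group median of 116337. The values that leaving it out changes most are also given without it.

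P2ry12, the ADP receptor by which microglia are usually recognised, was low in whole brain and highest after sorting. It stood at 8.92, 15.5, 8.22 and 8.64 CPM in the 4 Tissue-Input libraries and at 372, 527, 518 and 454 CPM in the Cell-Input libraries of the same mice. In FACSAria-Input it reached 3847, 4002, 3618 and 3513 CPM, and in autoMACS-Input 3251, 2901, 1332 and 3059 CPM, with the low value in mouse 72. Tyto-Input held 2532 to 3691 CPM and autoMACS to Tyto-Input 3104 to 3587. FACSAria-Input lay above autoMACS-Input without overlap, the other pairs of sorts overlapped, and all Cell-Input and Tissue-Input libraries lay below them.

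In the TRAP fraction of the same preparations P2ry12 measured 166, 180, 184 and 177 CPM in Tissue-TRAP and 2279, 2436, 2818 and 2559 CPM in Cell-TRAP. The lowest and highest of the 16 sorted TRAP libraries were 2814 and 3670 CPM. Cell-TRAP lay far above Tissue-TRAP and below the sorts, but for mouse 948 of Cell-TRAP (2818 CPM), which reached mouse 73 of autoMACS-TRAP (2814 CPM).

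**Figure D1:**
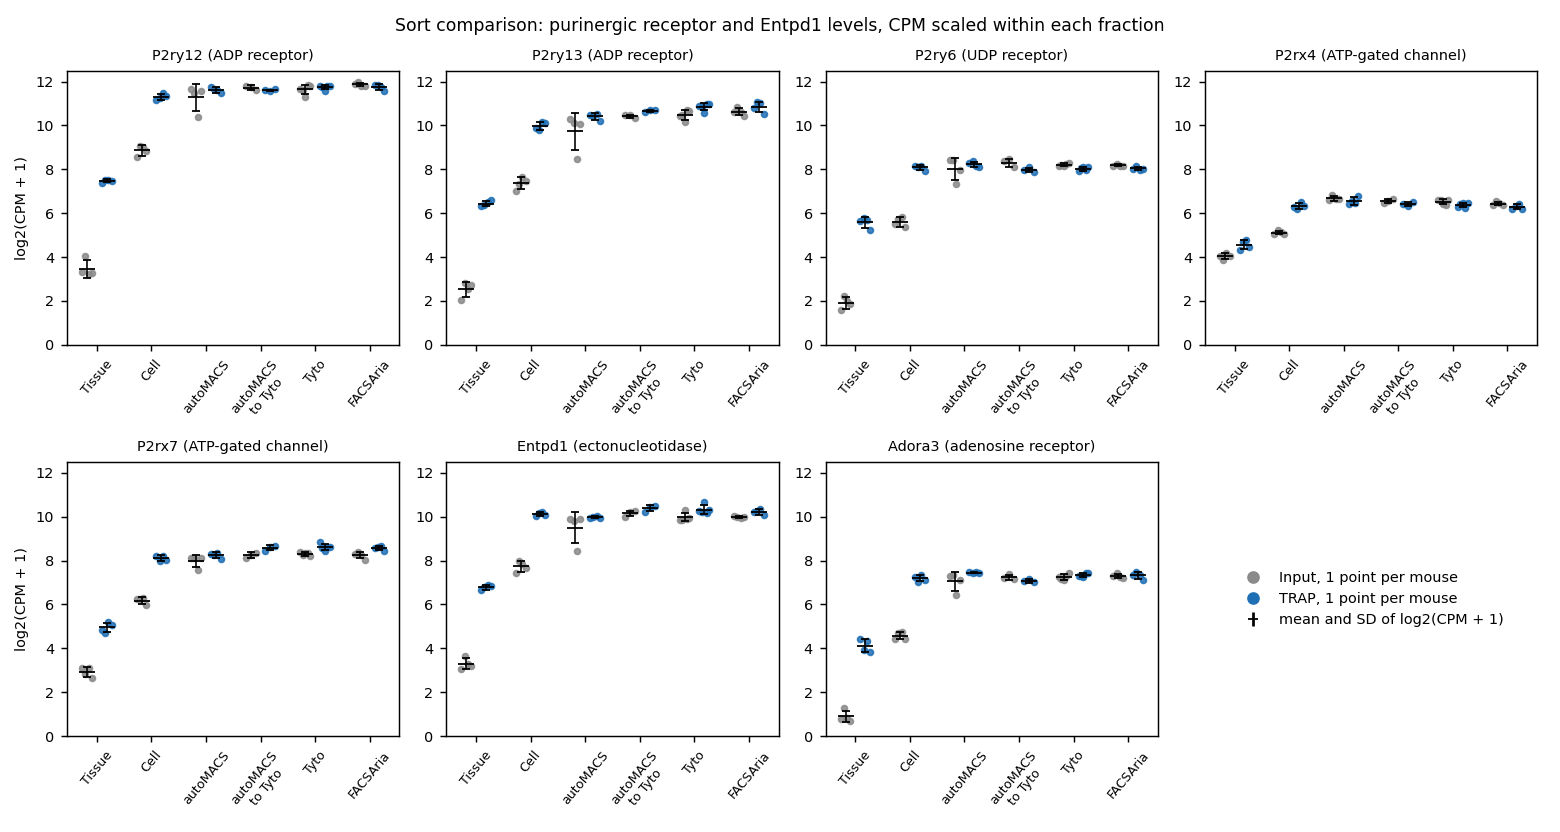
Levels of the 7 genes in the sort comparison, 1 panel a gene, as log2(CPM + 1) on the vertical axis against preparation on the horizontal axis; points are mice, Input in grey and TRAP in blue, with the mean and SD. Tissue is lowest in both fractions for every gene, Cell-Input lies between Tissue-Input and the sorts, and the sorted preparations lie nearer to each other than to Tissue.

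P2ry13, the other ADP receptor, was lowest in Tissue, higher in Cell and highest after sorting. It was at 3.15, 6.07, 4.75 and 5.52 CPM in Tissue-Input and at 126, 162, 197 and 177 CPM in Cell-Input. FACSAria-Input held 1392 to 1822 CPM, whereas autoMACS-Input held 1245, 1120, 356 and 1063, again lowest in mouse 72. In TRAP it went from 78.2, 80.9, 88.7 and 95.2 CPM in Tissue to 939, 877, 1130 and 1107 in Cell, and from there to 1177 to 1476 in autoMACS, 1575 to 1678 in autoMACS to Tyto, 1529 to 2048 in Tyto and 1460 to 2117 in FACSAria. All sorted TRAP libraries lay above Cell-TRAP for P2ry13, and autoMACS-TRAP also lay below autoMACS to Tyto-TRAP and Tyto-TRAP without overlap.

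P2ry6, the UDP receptor, was at 2.03 to 3.71 CPM in Tissue-Input, 39.7 to 54.9 in Cell-Input and 284 to 302 in FACSAria-Input. In TRAP it measured 48.4, 54.6, 49.9 and 36.1 CPM in Tissue and 281, 275, 286 and 241 in Cell. The sorted TRAP libraries held 236 to 329 CPM, a range that takes in Cell-TRAP on both sides.

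Of the ATP-gated channels, P2rx4 had the flattest profile of the 7. P2rx4 stood at 15.7, 13.7, 17.2 and 15.4 CPM in Tissue-Input and at 32.2, 36.2, 34.5 and 32 CPM in Cell-Input. Sorted Input libraries held 80.9 to 112 CPM. In TRAP it went from 19.3, 24.9, 26.4 and 20.9 CPM in Tissue to 77.9, 72.7, 91.1 and 79.8 in Cell, and the sorts, at 71.2 to 110 CPM, overlapped Cell. P2rx4 was the gene whose autoMACS-Input of mouse 72, at 98.5 CPM, lay among the other 3 (95.2, 112 and 98.2 CPM).

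P2rx7 moved more than its neighbour P2rx4. P2rx7 stood at 7.59, 6.02, 7.66 and 5.23 CPM in Tissue-Input, 74.5, 74.1, 76.6 and 61.1 in Cell-Input and 264 to 333 in FACSAria-Input. Its TRAP level was 27.9, 25.3, 35.6 and 32.7 CPM in Tissue, 297, 255, 298 and 256 in Cell, 268 to 328 in autoMACS and 344 to 453 in the other 3 sorts. Cell-TRAP and autoMACS-TRAP overlapped each other, and both lay below the 3 cytometric sorts without overlap.

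Entpd1, the ectonucleotidase, was at 7.32, 11.5, 8.68 and 8.11 CPM in Tissue-Input and at 173, 255, 231 and 202 in Cell-Input. Sorted Input libraries held 900 to 1259 CPM apart from mouse 72 of autoMACS at 344. In TRAP it measured 98.6, 110, 117 and 112 CPM in Tissue, 1062, 1145, 1192 and 1089 in Cell and 999, 1019, 1033 and 977 in autoMACS. Entpd1 was the gene for which autoMACS-TRAP lay below Cell-TRAP, without overlap, while the other 3 sorts ran from 1068 to 1614 CPM. Adora3, the adenosine receptor, stood at 0.694, 1.44, 0.766 and 0.624 CPM in Tissue-Input, which rest on 13, 28, 15 and 13 counts. Adora3 reached 20.3 to 25.9 CPM in Cell-Input, 13 to 20.3 in Tissue-TRAP, 131 to 163 in Cell-TRAP and 129 to 180 in the sorted TRAP libraries.

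Levels can be set against each other only per length of transcript. Per kilobase of annotated exon in FACSAria-TRAP (mean ± SD, n = 4), P2ry12 had 1354 ± 118 CPM, P2ry13 734 ± 119, Entpd1 213 ± 17.2 and P2ry6 91.0 ± 4.63. P2rx7 followed with 64 ± 4.32, Adora3 with 43 ± 4.87 and P2rx4 with 11 ± 0.936 CPM per kilobase. Tissue-TRAP gave the same order with P2ry12 at 69.5 and P2rx4 at 3.25. In Tissue-Input the order differed, with P2rx4 at 2.20 CPM per kilobase second to P2ry12 at 4.05. The length used is the union of all annotated exons of a gene, 7025 bases for P2rx4 and 2546 for P2ry12, and the order depends on it. A transcript shorter than this union would have a higher value. The Adora3 length goes by its symbol, while its counts may include Tmigd3.

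The first comparison asked how dissociation and sorting change the genes' share of the Input RNA. A gene was called when edgeR's quasi-likelihood test gave a false discovery rate (FDR, Benjamini-Hochberg over all genes tested) below 0.1 and the change was over 2-fold, the limits of the study. All 7 genes were called higher in Cell-Input than in Tissue-Input, where 46.1% of the 15750 genes tested were called and 28.6% were called higher. P2ry12 rose by 5.50 ± 0.26 on the log2 scale (SE; 45.3-fold, FDR = 9e-15), P2ry13 by 5.08 ± 0.30 (33.9-fold) and P2ry6 by 4.08 ± 0.21 (16.9-fold). Entpd1 rose 24.1-fold, Adora3 25.9-fold and P2rx7 10.8-fold. P2rx4 rose by 1.12 ± 0.09 on the log2 scale (2.18-fold, FDR = 9.8e-11), close to the 2-fold limit. With the mouse as a block its log2 change was 0.99 and it was no longer called, leaving 6 of 7. The median log2 change was 4.59 for the 7 genes and 0.17 for all genes. In bulk RNA of this kind, fewer cells of a type and less RNA per cell cannot be told apart.

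Sorting raised all 7 genes further in Input. Against Cell-Input, 7 of 7 were called higher in autoMACS (18.2% of genes called higher), autoMACS to Tyto (17%), Tyto (17.2%) and FACSAria (17.1%). In FACSAria the log2 changes were 3.00 for P2ry12, 3.26 for P2ry13, 2.59 for P2ry6, 1.34 for P2rx4, 2.08 for P2rx7, 2.23 for Entpd1 and 2.78 for Adora3. In autoMACS they ran from 1.58 for P2rx4 to 2.56 for Adora3, and without mouse 72 from 1.60 for P2rx4 to 2.79 for P2ry13, still with 7 of 7 called. P2rx4 had the smallest gain under each of the 4 sorts.

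Between the 4 sorts, an F test on Input called 0 of 7 genes at edgeR's FDR and the 2-fold limit, beside 7.44% of all genes. DESeq2 also called 0 of the 7 and 1914 genes, and 4236 genes had an unadjusted p below 0.05 in edgeR. The largest log2 difference between any pair of sorts was 0.74 for P2ry13 (FDR = 0.15) and 0.51 for P2ry12 (FDR = 0.32), and without autoMACS mouse 72 it was 0.47 and 0.29. P2ry6 differed by at most 0.22 and Adora3 by at most 0.21, and by 0.13 and 0.06 without that library. This test treats the libraries as separate although some share a mouse. With the mouse as a block, the differences between the sorts run on the same mice, autoMACS to Tyto against autoMACS and FACSAria against Tyto, were tested together, and 0 of 7 were called in Input, beside 0.912% of genes (114). The largest were 0.29 for Entpd1 (joint FDR = 0.086) and 0.27 for P2ry13 (joint FDR = 0.067), both higher in autoMACS to Tyto. Both passed the FDR limit but not the 2-fold limit.

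In TRAP, dissociation again came with higher levels of all 7 genes. Cell-TRAP against Tissue-TRAP had 7 of 7 called higher, beside 54.4% of 14953 genes called and 25.1% called higher. The log2 change was 3.83 ± 0.08 for P2ry12 (14.3-fold), 3.56 ± 0.12 for P2ry13 (11.8-fold) and 2.52 ± 0.10 for P2ry6 (5.73-fold). It was 1.81 ± 0.10 for P2rx4 (3.51-fold), 3.18 ± 0.10 for P2rx7 (9.09-fold), 3.36 ± 0.10 for Entpd1 (10.3-fold) and 3.13 ± 0.11 for Adora3 (8.75-fold). The median was 3.18 for the 7 genes and -0.01 for all genes.

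Sorting added little in TRAP. Against Cell-TRAP, edgeR called 0 of 7 genes in each of the 4 sorts, beside 23.6% of genes in autoMACS, 22.6% in autoMACS to Tyto, 23.9% in Tyto and 23.4% in FACSAria. Of these, 98 to 224 genes per sort were higher and the rest lower. DESeq2 called 0 of the 7 in each as well, and 7615 to 8405 genes had an unadjusted p below 0.05. The ADP receptors were higher with the FDR passed but the 2-fold limit not. P2ry13 was 0.88 ± 0.10 higher in Tyto (1.84-fold, FDR = 1.3e-07), 0.87 in FACSAria (FDR = 4e-07), 0.69 in autoMACS to Tyto and 0.43 in autoMACS. P2ry12 was 0.31 to 0.45 higher across the 4 sorts. P2rx7 was 0.46 to 0.52 higher in the 3 cytometric sorts and 0.14 in autoMACS. The log2 difference from Cell-TRAP ran from -0.11 to 0.15 for P2ry6, -0.05 to 0.22 for P2rx4, -0.16 to 0.26 for Entpd1 and -0.12 to 0.25 for Adora3.

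Across the 4 sorts, TRAP levels of several of the genes differed, though under 2-fold and not between every pair of sorts. The F test called 0 of 7, beside 4.18% of all genes; DESeq2 called 0 of the 7 too, and 5091 genes had an unadjusted p below 0.05. The FDR was 0.0076 for P2ry13 with a largest log2 difference of 0.45, 0.0054 for Entpd1 with 0.42, and 0.013 for P2rx7 with 0.38. For P2ry12 the largest difference was 0.14 (FDR = 0.26). With the mouse as a block for the sorts run on the same mice, 0 of 7 were again called, beside 2.19% of genes (258), and the joint FDR was 0.0073 for Entpd1, 0.032 for P2rx7, 0.045 for P2ry13 and 0.020 for Adora3. In this fit Entpd1 was 0.45, P2rx7 0.39 and P2ry13 0.32 higher in autoMACS to Tyto than in autoMACS, and Adora3 differed by -0.35. Between FACSAria and Tyto the largest difference of the 7 was -0.09, for P2rx7 (edgeR FDR = 0.998). Against Tissue-TRAP, the mean of the 4 sorts was called higher for 7 of 7, beside 25.9% of genes called higher, with log2 changes of 4.22 for P2ry12, 4.28 for P2ry13, 2.50 for P2ry6, 1.88 for P2rx4, 3.58 for P2rx7, 3.46 for Entpd1 and 3.23 for Adora3.

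The pull-down itself was then compared with its Input, with all libraries scaled together. In Tissue, 6 of 7 genes were called higher in TRAP than in Input, beside 11.1% of 15825 genes called and 9.22% called higher. The log2 ratio was 4.30 for P2ry12, 4.33 for P2ry13, 4.26 for P2ry6, 3.82 for Entpd1, 4.43 for Adora3 and 2.40 for P2rx7. For P2rx4 it was 0.76 ± 0.10 (FDR = 1.4e-08), under 2-fold. In Cell, 7 of 7 were called higher (16.8% of genes), with log2 ratios of 2.72 for P2ry12 and 1.54 for P2rx4.

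After sorting the pull-down and its Input were close. edgeR and DESeq2 each called 0 of 7 genes in autoMACS (17.6% of genes called), autoMACS to Tyto (5.43%), Tyto (17%) and FACSAria (10.4%), where 4870 to 7505 genes had an unadjusted p below 0.05. Of the genes called by edgeR, 11, 23, 12 and 14 were higher in TRAP, in that order, and the rest lower. With the mouse as a block the number of genes called went from 2785 to 890 in autoMACS, from 2693 to 1268 in Tyto and from 1653 to 781 in FACSAria, and 0 of 7 stayed the count in each. P2ry12 had log2 ratios between -0.03 and 0.32, and the highest, in autoMACS, was 0.12 without mouse 72. P2rx7 was higher in TRAP by 0.31 to 0.45 across the 4 sorts, with an FDR between 0.0011 and 0.020, and in autoMACS its ratio was 0.22 (FDR = 0.13) without mouse 72. P2ry13 ratios were 0.32 to 0.60, with the highest, in autoMACS, at 0.34 without mouse 72, and P2rx4 ratios -0.08 to -0.02.

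**Figure D2:**
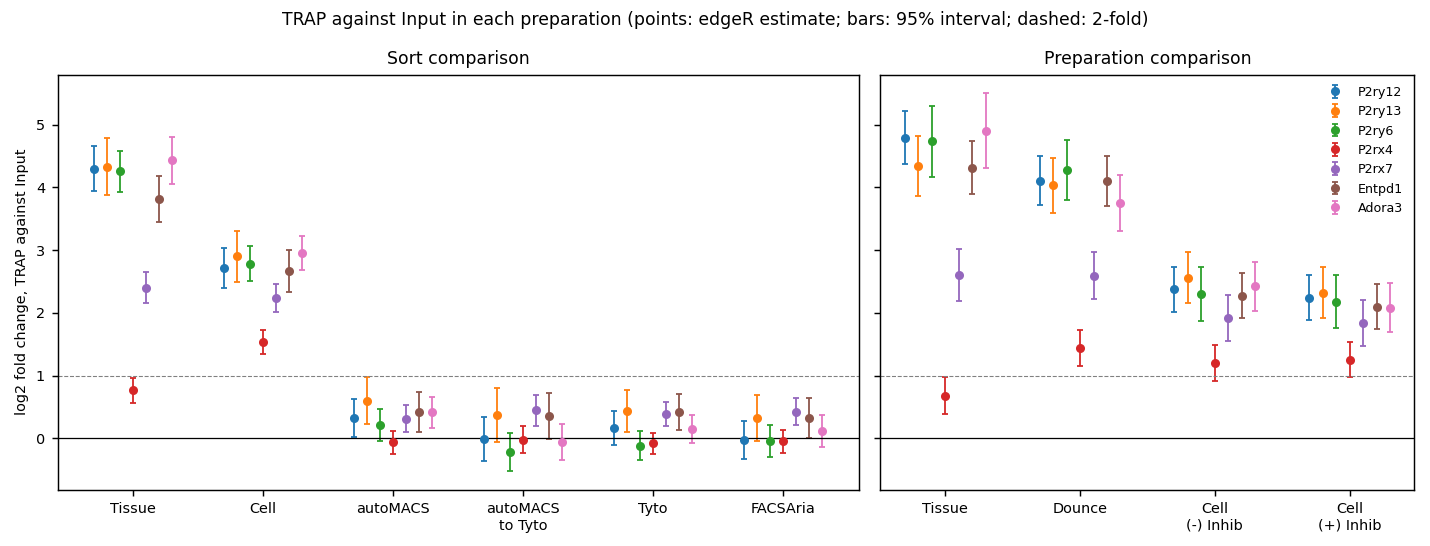
TRAP against Input log2 fold change of the 7 genes in each preparation, with 95% intervals; the dashed lines mark 2-fold. The ratio is largest in Tissue and Dounce for the P2Y receptors, Entpd1 and Adora3, lower in Cell, and near 0 after sorting, while P2rx4 shows its lowest positive ratios in Tissue.

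The fall in the ratio from Tissue to Cell was tested as an interaction. It was called for 5 of 7 genes, all lower, beside 35.3% of genes called and 29.5% called lower. The interaction was -1.58 ± 0.22 for P2ry12 (FDR = 1.3e-07), -1.43 ± 0.28 for P2ry13, -1.48 ± 0.20 for P2ry6, -1.15 ± 0.23 for Entpd1 and -1.48 ± 0.24 for Adora3, on the log2 scale. For P2rx7 it was -0.16 ± 0.16 (FDR = 0.38). For P2rx4 it went the other way, at 0.78 ± 0.13 (FDR = 6.1e-06), which is under 2-fold. The study's microglial markers, 4 of these genes included, had a median of -1.48, with 91 called lower and 3 higher, against a median of -0.29 over all genes.

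The 7 genes were also set against the other microglial RNA, by scaling libraries to the 109 microglial markers of the study that are not among them. On this scale a value of 0 means that a gene moved with the markers, and most of the genome is called lower. In Cell-Input against Tissue-Input, 0.73% of genes were called higher and 91.9% lower. P2ry12 was 1.56 ± 0.14 higher than the markers (log2), above 108 of the 109, and P2ry13 was 1.13 ± 0.20 higher, above 107. P2rx4 was called lower at -2.86 ± 0.17, above only 2 of the markers. P2ry6 (0.14), P2rx7 (-0.54), Entpd1 (0.64) and Adora3 (0.77) were not called. Of the markers themselves, 3 were called higher and 10 lower.

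The same pair was called higher in TRAP. In Cell-TRAP against Tissue-TRAP, where 0.91% of genes were called higher, P2ry12 was 1.32 ± 0.07 and P2ry13 1.05 ± 0.09 above the markers on the log2 scale. P2rx4 was at -0.70 ± 0.09 and P2ry6 at 0.00, both uncalled. Entpd1 (0.85, above 102 markers), P2rx7 (0.68, above 98) and Adora3 (0.62, above 96) were also higher than most markers, but under 2-fold and uncalled. The mean of the 4 sorts against Tissue-TRAP (1.02% of genes called higher) put P2ry13 at 1.51, above all 109 markers, and P2ry12 at 1.45, above 108. It put P2rx7 at 0.82, Entpd1 at 0.69, Adora3 at 0.47, P2ry6 at -0.27 and P2rx4 at -0.89, all uncalled. Against Cell-TRAP, edgeR called 0 of 7 genes relative to the markers in any sort, beside 25.4% of all genes in autoMACS, 24.5% in autoMACS to Tyto, 25.7% in Tyto and 25% in FACSAria. Below the 2-fold limit, P2ry13 was 0.60 higher in Tyto (FDR = 3.9e-06, above 108 markers) and 0.62 in FACSAria (FDR = 5.8e-06, above 106). It was 0.44 higher in autoMACS to Tyto and 0.20 in autoMACS. P2ry12 ran from 0.06 to 0.20, P2rx7 from -0.10 to 0.23 and Adora3 from -0.37 to 0.02. Entpd1 ran from -0.39 to 0.01, P2ry6 from -0.36 to -0.09 and P2rx4 from -0.30 to -0.01. When 10 defining microglial genes replaced the 109 markers, P2ry12 stayed called against Tissue in each preparation, whereas P2ry13 fell under 2-fold, to 0.84 in Cell-Input and 0.93 in Cell-TRAP of the sort comparison. In the mean of the 4 sorts P2ry13 stayed called, at 1.26, and P2rx4 became called lower, at -1.14. P2ry13 also fell to 0.98 in Cell-Input without Tissue-Input of mouse 946.

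**Figure D3:**
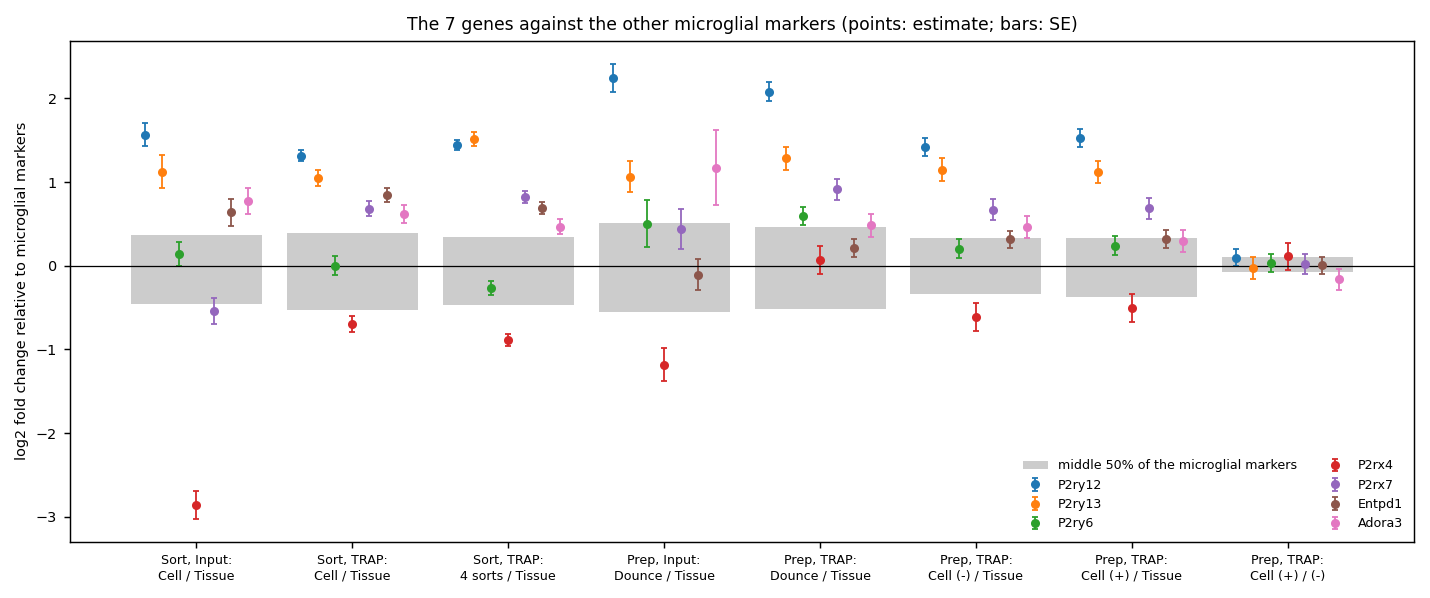
Log2 fold change of the 7 genes relative to 109 other microglial markers, with SE, in 7 comparisons with Tissue and in the comparison of Cell with and without inhibitors; the grey band is the middle 50% of the markers. P2ry12 and P2ry13 lie above the band in the comparisons with Tissue, and P2rx4 lies below it in Input and in TRAP of the sort comparison. Entpd1, P2rx7 and Adora3 lie above it in TRAP of the sort comparison.

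P2rx4 stayed apart from the markers when the suspension was sorted. Relative to them, P2rx4 in Input was at -1.24 in autoMACS to Tyto against Cell, -1.19 in Tyto and -1.31 in FACSAria, all called, beside 90.7%, 90.2% and 90.5% of genes called lower. In autoMACS it was at -0.91, and at -1.02 and called without mouse 72, beside 87.6% of genes called lower. P2rx4 in Input thus gained less than the microglial markers from Tissue to Cell and from Cell to the sorts. The 5 defining neuronal genes summed to 4916 to 5264 CPM in Tissue-Input, 367 to 933 in Cell-Input and 6.88 to 27.9 in the sorted Input libraries, and their part in the result was not tested. P2rx7 and Entpd1 also lay below most of the markers in sorted Input against Cell-Input, under 2-fold and uncalled. P2rx7 ran from -0.71 in autoMACS to -0.48 in Tyto. Entpd1 ran from -0.70 in autoMACS (-0.49 without mouse 72) to -0.28 in autoMACS to Tyto. P2ry13 lay above all 109 in Tyto (0.52) and FACSAria (0.61), also uncalled, and at -0.07 in autoMACS (0.18 without mouse 72).

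The preparation comparison asked what a cold mechanical suspension or the inhibitors change. In Input, P2ry12 was at 9.75, 7.83, 7.69 and 7.52 CPM in Tissue, 269, 208, 155 and 285 in Dounce, 350, 526, 502 and 711 in Cell (−) Inhib and 538, 722, 630 and 567 in Cell (+) Inhib. Dounce-Input lay below both Cell groups and far above Tissue-Input. In TRAP P2ry12 was at 188, 185, 189 and 221 CPM in Tissue, 3394, 3167, 2366 and 3292 in Dounce, 2650, 2241, 2476 and 3237 in Cell (−) Inhib and 2965, 2648, 2866 and 2988 in Cell (+) Inhib. The 3 suspensions overlapped one another there.

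**Figure D4:**
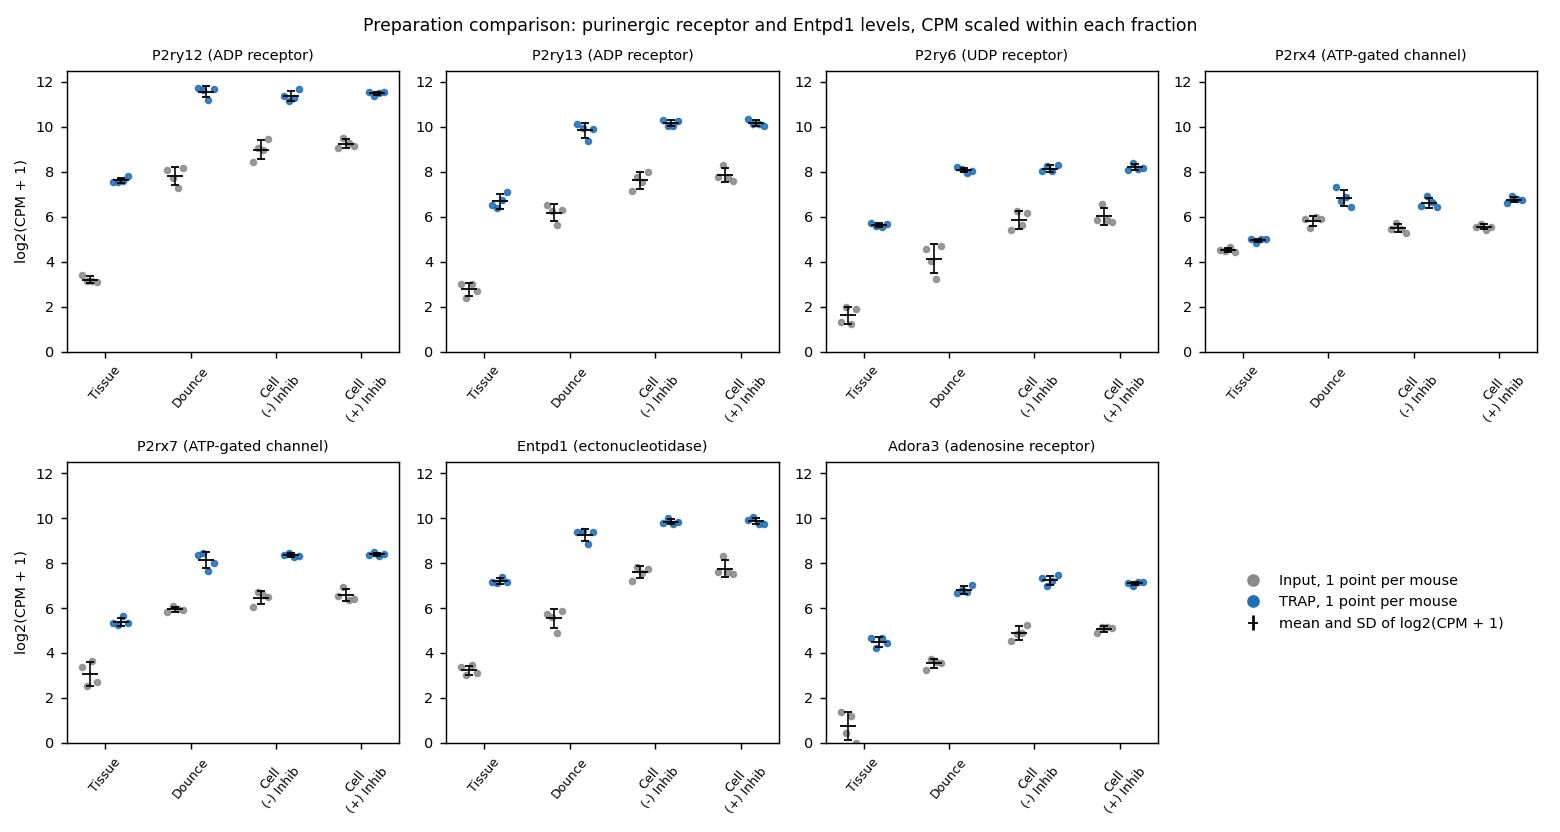
Levels of the 7 genes in the preparation comparison, 1 panel a gene, as log2(CPM + 1) against preparation, with a point for each mouse, Input in grey and TRAP in blue, and the mean and SD. Cell without and with inhibitors lie together in both fractions, and Dounce-Input lies between Tissue-Input and the Cell groups for every gene except P2rx4.

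All 7 genes were called higher than in Tissue in each suspension. In Input this was 7 of 7 in Dounce (28.7% of 15753 genes called higher), in Cell (−) Inhib (25.6%) and in Cell (+) Inhib (25.5%). The log2 changes of P2ry12 in Input were 4.80 in Dounce, 5.99 in Cell (−) Inhib (63.5-fold) and 6.22 in Cell (+) Inhib, and those of Entpd1 were 2.46, 4.50 and 4.69. P2rx4 rose by 1.33, 1.00 and 1.07, and its call in Cell (−) Inhib rested on the 2-fold limit, with 0.92 to 1.06 when 1 library was left out (0.92 without mouse 1362 of Cell (−) Inhib, 0.97 without Tissue-Input of mouse 949 and 0.99 without that of mouse 947). In TRAP it was 7 of 7 again, beside 23.2%, 22.3% and 21.6% of 14723 genes called higher, with log2 changes of 3.96, 3.76 and 3.87 for P2ry12 and 2.09, 2.64 and 2.67 for Entpd1. For Adora3, 1 of the 4 Tissue-Input libraries, mouse 949, had 0 of 9244231 counts, where 3 counts would be 0.325 CPM, and the other 3 had 16, 3 and 12 counts.

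The inhibitors made no called difference to any of the 7. In Input, edgeR and DESeq2 called 0 of 7 between Cell (+) Inhib and Cell (−) Inhib, beside 0.311% of genes (49 genes by edgeR and 59 by DESeq2, with 532 at an unadjusted p below 0.05). In TRAP both called 0 of 7, beside 0.638% of genes (94 by each tool, 150 with the mouse as a block, and 1313 at an unadjusted p below 0.05). The log2 difference in TRAP was 0.11 for P2ry12 (95% interval -0.13 to 0.36), -0.01 for P2ry13 (-0.33 to 0.32), 0.05 for P2ry6 (-0.14 to 0.25) and 0.14 for P2rx4 (-0.18 to 0.45). It was 0.04 for P2rx7 (-0.25 to 0.32), 0.03 for Entpd1 (-0.21 to 0.26) and -0.15 for Adora3 (-0.41 to 0.11). These intervals leave room for changes of up to about 0.45 on the log2 scale, and the Input intervals are wider, up to 0.71 for Adora3.

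Within mice the ratios with against without inhibitors spread more widely in Input than in TRAP. In Input they ran from -0.33 to 0.62 on the log2 scale for P2ry12 and from -0.42 to 0.65 for P2ry13, each higher in 3 of 4 mice, and from -0.21 to 0.49 for P2rx7, higher in 2 of 4. In TRAP, P2rx4 was higher with inhibitors in 4 of 4 mice, by 0.01 to 0.30 on the log2 scale, and P2rx7 in 4 of 4, by 0.02 to 0.07. P2ry12, P2ry13, P2ry6 and Entpd1 were higher in 3 of 4 mice, and Adora3 in 1 of 4, with log2 ratios from -0.31 to 0.01. By contrast, 12 of 12 early response genes such as Fos and Jun were called lower with inhibitors in TRAP, with a median log2 change of -5.22, and their summed level was 20023 to 35186 CPM without inhibitors and 836 to 943 CPM with them.

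Dounce and the enzymatic suspension differed for these genes in Input more than in TRAP. In Input, 5 of 7 were called lower in Dounce than in Cell (−) Inhib, beside 56.8% of genes called and 28.1% called lower. P2ry12 fell by 1.19 on the log2 scale, P2ry13 by 1.44, P2ry6 by 1.71, Adora3 by 1.43 and Entpd1 by 2.04, the largest of the 7. P2rx4 (0.33) and P2rx7 (-0.53) were not called, and relative to the microglial markers both were called higher in Dounce-Input, P2rx4 by 1.95 and P2rx7 by 1.12, beside 62.6% of genes called higher. The study's microglial markers summed to 6549 to 9388 CPM in Dounce-Input and 20288 to 31288 in Cell (−) Inhib-Input, and blood cell genes to 8658 to 10175 CPM in Dounce-Input against 3494 to 8118 in Cell (−) Inhib-Input. Relative to the microglial markers, 0 of 7 were called lower in Dounce-Input, beside 5.64% of genes called lower. On that scale P2ry12 was at 0.44 and P2ry13 at 0.18, both uncalled. The part of microglial content or blood cells in the result was not tested beyond this scaling.

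In TRAP, edgeR and DESeq2 called 0 of 7 genes between Dounce and Cell (−) Inhib, beside 28.7% of genes, with 8568 at an unadjusted p below 0.05. Entpd1 was lower in Dounce-TRAP by -0.55 ± 0.11 (log2, FDR = 5.2e-04), at 676, 690, 466 and 659 CPM against 881, 1013, 847 and 913 CPM in Cell (−) Inhib-TRAP. Adora3 was lower by -0.44 ± 0.12 (FDR = 0.0065), at 101, 111, 104 and 130 CPM against 159, 126, 145 and 176 CPM. Both are under 2-fold. For Entpd1 the groups did not overlap, and for Adora3 they overlapped by 1 library of each. P2ry12 (0.20) and P2rx4 (0.23) had positive differences. The study's microglial markers summed to 90898 to 108688 CPM in Dounce-TRAP and 116260 to 131673 in Cell (−) Inhib-TRAP. Relative to these markers 0 of 7 were called, beside 32.6% of genes. The median log2 difference of the 7 was 0.25 on that scale and -0.20 on the plain scale. The part of microglial content in the differences was not tested further. Dounce-TRAP held more neuronal RNA than the enzymatic suspensions, with 906 to 1666 CPM summed over the 5 defining neuronal genes against 37.5 to 136 CPM.

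Relative to the 109 markers, P2ry12 and P2ry13 were also called higher in TRAP of the preparation comparison, whose Tissue libraries come from the same mice as those of the sort comparison. In TRAP against Tissue, P2ry12 was higher by 2.08 in Dounce, 1.42 in Cell (−) Inhib and 1.52 in Cell (+) Inhib (log2), and P2ry13 by 1.28, 1.15 and 1.12, all called, beside 2.17%, 0.971% and 0.496% of genes called higher. P2ry12 in Dounce-TRAP was above all 109 markers. With the 10 defining genes in place of the markers P2ry13 was under 2-fold in all 3. In Input against Tissue, P2ry12 was higher by 2.25 in Dounce (3.12% of genes called higher), 1.81 in Cell (−) Inhib (0.533%) and 1.99 in Cell (+) Inhib (0.375%). P2ry13 (1.07 and 1.03) and Adora3 (1.17 and 1.07) were called higher in Dounce and Cell (+) Inhib, and these calls were lost with the 10 defining genes or without Tissue-Input of mouse 947. The Adora3 calls were also lost without Tissue-Input of mouse 949, which had 0 Adora3 counts, at 0.83 in Dounce and 0.74 in Cell (+) Inhib. In Cell (−) Inhib P2ry13 and Adora3 were under 2-fold, but P2ry13 was called at 1.03 without Tissue-Input of mouse 946. Adora3 was called there at 1.57 without Tissue-Input of mouse 946 and at 1.26 without that of mouse 948. P2rx4 was lower by -1.18, -3.14 and -3.17 there, beside 79.1%, 93% and 93.7% of genes called lower. Because the comparisons against Tissue share those animals, the preparation comparison is no independent repeat of the sort comparison, and whether the Tissue libraries are separate ones is not given in the sources used here.

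In the preparation comparison, TRAP against Input called 6 of 7 higher in Tissue (8.22% of 15894 genes called higher), and 7 of 7 in Dounce (20.8%), Cell (−) Inhib (10.6%) and Cell (+) Inhib (9.73%). For P2ry12 the log2 ratio was 4.79, 4.11, 2.38 and 2.24 in that order. For P2rx4 it was 0.68, 1.44, 1.20 and 1.25, the first of which was not called.

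Of the wider pathway, a list of 44 other genes for purinergic receptors, ectonucleotidases, adenosine handling and ATP release was tested in the same fits. In Cell-TRAP against Tissue-TRAP, 10 of the 34 tested were called higher and 13 lower, beside 25.1% of all genes called higher and 29.2% called lower, with a median log2 change of 0.17. In the mean of the 4 sorts against Tissue-TRAP, 9 were called higher and 22 lower, beside 25.9% of all genes called higher and 36.8% called lower, with a median of -2.55. Adora1, an adenosine receptor of neurons, had 214 to 268 CPM in Tissue-TRAP and 1.02 to 3.12 in the sorted TRAP libraries, a log2 change of -7.09. The platelet and astrocyte ADP receptor P2ry1 changed by -6.32, Nt5e (CD73, which makes adenosine from AMP) by -6.06, Adora2a by -5.97, Entpd2 by -5.94 and the UDP-sugar receptor P2ry14 by -1.69, all called lower. In Cell-Input against Tissue-Input, 21 of 37 were called higher and 8 lower, beside 28.6% of all genes called higher and 17.5% called lower. There P2ry14 rose by 2.79, Entpd2 by 2.18 and P2ry1 by 1.30 on the log2 scale. With against without inhibitors, 0 of the list were called in either fraction by edgeR, beside 0.311% of all genes in Input and 0.638% in TRAP.

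Among 6 inflammasome genes, which act downstream of P2rx7, Il1b was the one that the inhibitors changed. Il1b, the interleukin 1 beta precursor, fell by 4.83 on the log2 scale in TRAP (SE 0.53) and by 3.35 in Input (SE 0.39) with inhibitors, and the other 5, Nlrp3 among them at -0.54 (FDR = 0.47), were not called. In Cell-TRAP against Tissue-TRAP of the sort comparison, 5 of 6 were called higher, beside 25.1% of all genes called higher, with log2 changes of 6.49 for Il1b and 3.42 for Nlrp3. P2rx7 itself had a log2 difference of 0.04 with inhibitors.

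The genes whose profile was most like each of the 7 were found by the lower of 2 Pearson correlations of log2(CPM + 1) across libraries, 1 over the 48 of the sort comparison and 1 over the 32 of the preparation comparison, among 13517 genes. These are descriptions, since libraries of a group share preparation and several share a mouse. P2ry12 was nearest to Gpr34 (0.997 and 0.998), Cx3cr1 and Rasgrp3. P2ry13 was nearest to Cx3cr1, Pik3cg and Tlr13. P2ry6 was nearest to Siglech, 4632428N05Rik and Cmklr1, and P2rx7 to Pde3b, Ankrd44 and Cd84. Entpd1 was nearest to Slco2b1, Csf1r and Inpp5d, and Adora3 to Tmem173, Lpcat2 and Itgam. P2rx4 had the weakest nearest gene, Cnppd1 (0.976 in the sort comparison), followed by Acer3 and Il17ra. Among the 7 themselves the correlations ran from 0.940 to 0.995 in the sort comparison and from 0.874 to 0.992 in the preparation comparison, lowest for P2rx4 with Entpd1.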

How the data were processed

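Poly(A) RNA of Input and TRAP fractions was sequenced from 80 directional libraries. Per the study's methods, the authors trimmed reads and aligned them by strand to mm10 in Strand NGS, removed duplicate reads and quantified genes. The deposited tables give estimated counts per gene and library (33.2% of values whole in the sort comparison and 20.8% in the preparation comparison), which were rounded to whole numbers here. Columns of log2 values that the authors normalized with DESeq2 and set to the Tissue-Input median were deposited too and were not used, and a further table of the series was not used here. Groups came from the sample labels.

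Genes with more than 5 counts in every library of at least 1 group were kept, as in the study, and fitted within Input, within TRAP or over both, with all groups of a comparison in 1 fit, by edgeR 4.0.16 quasi-likelihood tests with TMM scaling in R 4.3.3 and Benjamini-Hochberg adjustment over all genes tested. All 7 genes passed this filter in every fit. A gene was called at an FDR below 0.1 and over 2-fold. Fits relative to microglial markers took scaling factors from 109 genes. DESeq2 1.42.0, its size factors, other filters, fewer groups, leaving out each library and the mouse as a block were alternatives. Exon lengths came from GENCODE vM21. The scripts were tested on simulated data. Intervals cover the spread between libraries; at these depths (2471448 to 20168116 counts) counting error matters most for Adora3 in Tissue-Input.

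Named genes were the 7, the 3 nearest in profile to each and 6 fixed genes of the pathway list. Il1b and Nlrp3 of the inflammasome list and Fos and Jun of the early response list were named after their values were seen. The 7 genes and all lists were chosen with earlier results of these data known.

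Mouse numbers in the labels mark the same animal. Deviations from the group means correlated in 56 same-mouse pairs of libraries with a median of 0.221 (-0.146 to 0.473) and in 170 pairs of different mice with a median of -0.0669.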

Additional observations from a re-analysis of the deposited data

Results flagged for a closer look

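In 15 of 126 sets of a gene, a preparation and a fraction with 4 or 5 libraries, 1 library lay far from the others by Dixon's test, where chance alone gives about 1 in 20. The values are CPM. In the sort comparison these were P2ry12 in Tissue-Input of mouse 947 (high, 15.5), P2rx7 in Cell-Input of mouse 949 (low, 61.1), P2rx7 and Entpd1 in autoMACS-Input of mouse 72 (low, 189 and 344) and Entpd1 in Tyto-Input of mouse 823 (high, 1259). P2ry6 was high in mouse 945 of FACSAria in both fractions, at 302 in Input and 283 in TRAP.

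In the preparation comparison, mouse 1362 of Cell (+) Inhib was high in Input for P2ry6 (95.2) and Entpd1 (319), and mouse 181 of Dounce was low in TRAP for Entpd1 (466). Tissue libraries gave the rest. P2ry12 was high in Input of mouse 946 (9.75) and in TRAP of mouse 949 (221), P2rx4 was low in TRAP of mouse 947 (27.8), and P2rx7 (49.8) and Entpd1 (164) were high in TRAP of mouse 948.

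The enrichment of TRAP over Input differed between Cell and Tissue for 5 genes by the interaction in edgeR, on the log2 scale by -1.58 for P2ry12, -1.43 for P2ry13, -1.48 for P2ry6, -1.15 for Entpd1 and -1.48 for Adora3.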

How the results depend on the processing

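No called log2 change of the 7 genes turned its direction under any alternative. Changes near 0 that were called in neither fit did, in 36 values on the plain scale and 68 relative to the markers. No count of the 7 called against Tissue, Cell or Input moved by over 1.5 times. P2rx4 was the one gene to lose calls on the plain scale. Its log2 change in Input of Cell (−) Inhib against Tissue went to 0.94 with DESeq2 size factors or the DESeq2 test, to 0.99 with only the groups compared and to 0.92 to 1.06 with 1 library left out, and that of Cell-Input against Tissue-Input to 0.99 with only the groups compared or with the mouse as a replicate block, which changed no other call of the 7. An added block on the mouse for the sorts that share mice, chosen after seeing the data, kept 0 of 7 called and took the genes called between sorts from 1172 to 114 in Input and from 625 to 258 in TRAP, with 2 differences tested in place of 3. With 10 defining microglial genes in place of the 109 markers, the calls relative to markers went from 12 to 7 in Input and from 6 to 3 in TRAP of the preparation comparison. Counts over all genes were less stable: a minimum of 10 counts per gene in all libraries of a fit moved 31 of them (1.53 to 9.45 times) and left Adora3 untested in the preparation comparison Input, and DESeq2 raised those of the F tests across sorts from 1172 to 1914 in Input and from 625 to 1136 in TRAP. Leaving out 1 library lowered 3 TRAP against Input counts, from 1653 to 827 in FACSAria without Input of mouse 991, from 859 to 514 in autoMACS to Tyto without TRAP of mouse 67 and from 2785 to 1690 in autoMACS without Input of mouse 72. DESeq2 size factors moved the median of all genes by over 0.1 in 11 of 32 comparisons (-0.41 to 0.13). The cause was not tested.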
